A study of Mus musculus with 24 samples.

Results

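This experiment had 2 arms: myotubes received the hormone aldosterone, and fibroblasts received medium that hormone-treated myotubes had conditioned. The response of myotubes to the hormone (direct response) was set against the response of fibroblasts to the medium (medium response), each as the mean of the C57 and mdx changes, over all 24 of the 24 libraries of the series. Genes were sorted by whether both responses, 1 response or neither passed the test, and by whether the difference between the responses passed it.

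Myotubes, the multinucleate fibres that form when myoblasts fuse, were differentiated from hindlimb myoblasts of mice under 5 days old, and the fibroblasts were primary muscle fibroblasts. Both cell types came from C57 BL/10 mice (C57 below) and from C57BL/10-Dmdmdx (mdx) mice, whose dystrophin gene carries the mdx mutation. Vehicle myotubes received 0.001% DMSO and aldosterone myotubes 1 µM aldosterone, each for 48 h in medium with charcoal stripped horse serum. Fresh medium of the same kind was then conditioned for 15 h, the myotubes were lysed after its collection, and fibroblasts were kept for 24 h in the medium of vehicle myotubes (vehicle medium) or of aldosterone myotubes (aldosterone medium). The 8 groups (2 cell types, 2 genotypes, vehicle or aldosterone) held 3 libraries each, numbered as biological replicates. The 2 responses share no library. All hormone-treated cells were myotubes and all cells given conditioned medium were fibroblasts. In a difference between the responses, the kind of exposure, the cell type and the exposure time therefore cannot be told apart. The fibroblasts received medium from their own genotype, so the genotype of the cell and of the medium cannot be told apart. Hormone left in the medium was not measured in these files, and its part in the medium response was not tested.

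Aldosterone is a steroid hormone that binds the mineralocorticoid receptor (Nr3c2) and, with lower affinity, the glucocorticoid receptor (Nr3c1), both transcription factors that move to the nucleus when bound. Fkbp5, Per1, Tsc22d3 and Sgk1 are textbook targets of these receptors. Muscle fibres also secrete proteins that fibroblasts sense, among them growth factors, Wnt regulators and the matrix protein osteopontin (Spp1). Both receptors were read in both cell types. Nr3c2 had 4.67 ± 0.994 CPM (reads scaled to the library total; SD, n = 6) in vehicle myotubes and 2.61 ± 0.725 CPM in vehicle-medium fibroblasts. Nr3c1 had 83.1 ± 7.47 CPM and 128 ± 7.78 CPM in the same groups. Neither receptor changed past the test in either response.

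Library totals ran from 14133165 to 31144746 counts in myotubes and from 16964960 to 42698139 in fibroblasts. The summed level of 10 myotube markers was 24900 to 40700 CPM in myotubes and 13.6 to 137 CPM in fibroblasts. The summed level of 10 fibroblast markers was 13500 to 21800 CPM in fibroblasts and 328 to 3570 CPM in myotubes, with Tcf21 at 0 in all libraries. These are bulk samples, in which fewer cells of a type and less RNA per cell cannot be told apart. Macrophage markers summed to 5.49 to 521 CPM in myotubes, highest in C57 vehicle replicate 2, and their part in the direct response was not tested.

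3 fibroblast libraries stood apart by their totals of 38764711 to 42698139 counts, against at most 28391756 in the other 9: C57 vehicle medium replicate 1, mdx vehicle medium replicate 2 and mdx aldosterone medium replicate 2. By expression they were not 1 clear set. Their deviations from group means had correlations of 0.198 to 0.561 with each other and up to 0.314 with another fibroblast library. The first principal component of the fibroblast libraries (29.9% of the variance) did not separate them from the other 9. Myotube markers summed to 107 CPM in the first and 137 CPM in the last of the 3 libraries, against 13.6 to 56.1 CPM in the other 10 fibroblast libraries. Results are therefore given for all 24 libraries (the 24-library fit) and for 21 libraries without these 3 (the 21-library fit), in which 4 vehicle-medium and 5 aldosterone-medium libraries remained. Same-numbered myotube libraries of a genotype deviated together, with correlations of 0.514 to 0.8 in all 6 pairs, whereas the correlations of same-numbered fibroblast libraries were 0.0735 to 0.45. Each fit was therefore also made with the myotube cultures paired by number (the paired 24-library and paired 21-library fits). A gene was called at a Benjamini-Hochberg adjusted p under 0.05 in edgeR's quasi-likelihood test.

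In the 24-library fit the hormone changed 74 of 17864 genes in myotubes (0.414%), 33 of them higher (0.185%) and 41 lower (0.23%). The medium changed 0 genes in fibroblasts (0%) by edgeR, with 1648 genes at an unadjusted p under 0.05 and a smallest adjusted p of 0.0856, whereas DESeq2 called 43. With no medium gene called, that fit could show no gene as changed in both responses. The difference between the responses was called for 13 genes (0.0728%), 3 with the higher value in the direct response (0.0168%) and 10 with the lower (0.056%). Of the 57 called direct genes that had at least 1 CPM in both cell types, 30 had the same sign in the medium response. Their median absolute log2 change was 0.551 in the direct and 0.0805 in the medium response. For 45 of these 57 the difference itself was not called, so a response confined to myotubes was not shown for them.

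The counts depended on the pairing and on the 3 libraries. The paired 24-library fit called 562 direct genes (3.15%), 4 medium genes (0.0224%) and 159 differences (0.89%). The 21-library fit called 74 direct genes (0.409%), 32 medium genes (0.177%) and 26 differences (0.144%). The paired 21-library fit called 933 (5.16%), 807 (4.46%) and 419 (2.32%). In that fit 133 genes were called in both responses, which was 17.3% of the 771 direct and 18.2% of the 731 medium genes with at least 1 CPM in both cell types. For comparison, 6.13% of all 12570 such genes were direct calls and 5.82% were medium calls. Of the 133 genes, 93 changed in the same direction and 40 in opposite directions. The same sign was held by 55.7% of all 12570 genes of at least 1 CPM in both cell types. Pairing changed only the myotube terms, while both cell types shared 1 estimate of the spread in each of these fits. Fibroblasts fitted alone, without a block, gave 2 medium genes of 16671 (0.012%) with 12 libraries. Without the 3 libraries of highest total, the 9 others alone gave 774 of 16514 (4.69%).

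Single libraries moved these counts in the 24-library fit. Without mdx aldosterone medium replicate 2 the medium count was 112 and the difference count 40, and without mdx aldosterone medium replicate 1 the medium count was 1. The difference count was 6 without C57 aldosterone medium replicate 3 or mdx vehicle medium replicate 1, 7 without C57 vehicle medium replicate 2 and 8 without mdx aldosterone medium replicate 3. The direct count was 158 without mdx vehicle myotube replicate 1. It was 37 and 48 without C57 vehicle myotube replicates 2 and 1, 42 and 45 without C57 aldosterone replicates 2 and 3, and 47 and 45 without mdx vehicle replicates 2 and 3. In the paired 24-library fit the direct count was 225, 238, 287, 305 and 368 without mdx myotube cultures 3 and 2 and C57 cultures 1, 3 and 2. The medium count there was 1225 without mdx aldosterone medium replicate 2 and 44 without mdx vehicle medium replicate 2. It was 16 without C57 vehicle medium replicate 2 or 3, and 9 and 2 without C57 aldosterone medium replicates 2 and 3. The difference count there was 431 without mdx aldosterone medium replicate 2. It was 72, 82, 96 and 102 without mdx cultures 2 and 3 and C57 cultures 3 and 1, and 95, 103 and 104 without C57 aldosterone medium replicates 1 and 3 and mdx aldosterone medium replicate 1.

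**Figure D1:**
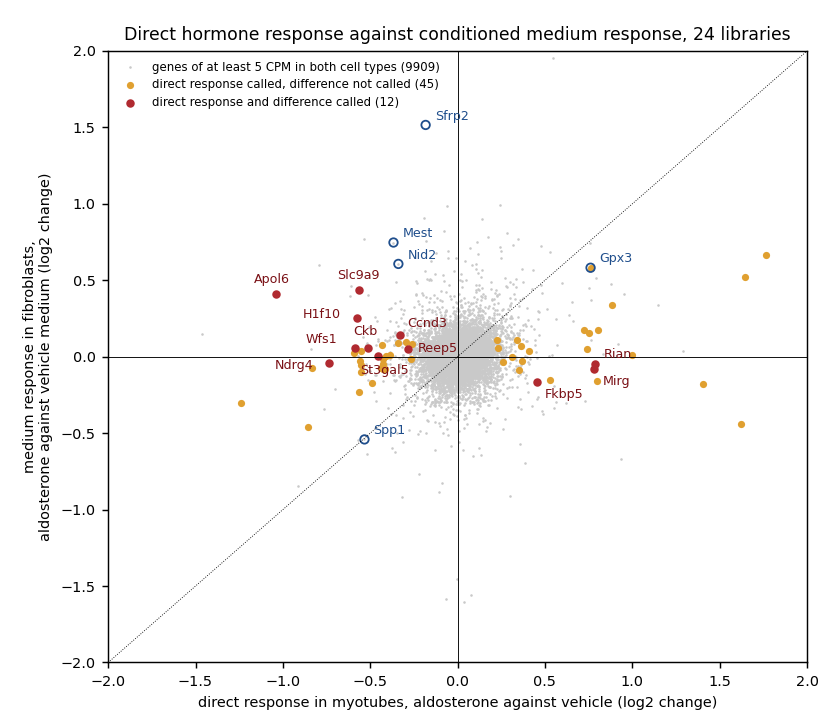
Each grey point is 1 of 9909 genes with at least 5 CPM in both cell types, placed by its log2 change in the direct response (horizontal axis) and in the medium response (vertical axis) in the 24-library fit. Orange points (45) had a called direct response without a called difference and red points (12) had both. The red points lie near the horizontal axis or across it, while Spp1 and Gpx3 lie near the diagonal of equal change and Sfrp2, Mest and Nid2 near the vertical axis or to its left.

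Across those 9909 genes the direct and medium log2 changes had a Pearson r of 0.132 (Spearman rho 0.121), as a description over genes, which are not independent replicates. Within each cell type the C57 and mdx changes had r of 0.459 for the direct and 0.528 for the medium response. Without the 3 libraries the direct and medium changes had r of 0.146 over 9881 genes. In the plot of direct against medium changes the cloud therefore has no clear diagonal, and single genes such as Spp1 lie on it.

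The genes with a called difference were mainly genes that the hormone changed in myotubes and that lay near their vehicle level in fibroblasts. Of the 13, 12 had at least 1 CPM in both cell types. All 13 were called in the paired 24-library and the paired 21-library fits, 10 were called in the 21-library fit, and all 13 kept their sign in the 4 fits. Fkbp5, Rian and Mirg were higher with aldosterone in myotubes, and 10 genes were lower, among them Ndrg4, Wfs1, Ckb, Ccnd3 and St3gal5.

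Fkbp5 (ENSMUSG00000024222, mm39 chromosome 17, 28618068 to 28736501) encodes an HSP90 co-chaperone of steroid receptors and is a standard readout of corticosteroid receptor activity. In C57 myotubes it had 16.2, 18 and 17.3 CPM with vehicle and 25.9, 25.5 and 24.9 CPM with aldosterone. The mdx myotubes had 18.3, 21.2 and 16.6 CPM with vehicle and 22.5, 23.5 and 25.4 CPM with aldosterone. All 6 aldosterone myotube libraries were above all 6 vehicle libraries. C57 fibroblasts had 24.1, 25.2 and 21.5 CPM in vehicle medium and 19.9, 22.6 and 18.3 CPM in aldosterone medium. The mdx fibroblasts had 22.4, 22.3 and 21.9 CPM in vehicle medium and 19.9, 22.3 and 19.6 CPM in aldosterone medium. Fibroblast libraries of the 2 media overlapped, and 4 of the 6 aldosterone-medium libraries were below all vehicle-medium libraries. Fkbp5 rose by 0.46 on the log2 scale in the direct response (edgeR adjusted p = 0.00145) and its medium log2 change was -0.16 (adjusted p = 0.473). The difference was 0.62 (SE 0.093, 95% interval 0.43 to 0.81, adjusted p = 0.0119).

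Rian and Mirg are long non-coding RNAs of the imprinted domain on mm39 chromosome 12 that also holds Meg3 and carries clusters of small nucleolar RNAs and microRNAs. Rian (ENSMUSG00000097451, 109570242 to 109628150) had 225, 188 and 229 CPM in C57 vehicle myotubes and 412, 301 and 382 CPM with aldosterone. The mdx myotubes had 244, 204 and 188 CPM with vehicle and 457, 323 and 328 CPM with aldosterone. Every aldosterone myotube library was above every vehicle library. Rian had 464 ± 38.5 CPM in vehicle-medium and 449 ± 20.6 CPM in aldosterone-medium fibroblasts (SD, n = 6), ranges that overlapped. The difference between the responses was 0.83 on the log2 scale (SE 0.134, adjusted p = 0.0139 by edgeR).

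Mirg (ENSMUSG00000097391, 109696198 to 109715894) went from 7.23 ± 1.22 to 12.5 ± 2.04 CPM in myotubes and from 17 ± 2.06 to 16.1 ± 0.747 CPM in fibroblasts, a difference of 0.86 (adjusted p = 0.0327). Meg3 (ENSMUSG00000021268, 109506879 to 109538165) rose in myotubes from 107 ± 13.2 to 156 ± 28.4 CPM, a call lost in 4 of 24 fits without 1 library (adjusted p up to 0.0618). In fibroblasts Meg3 had 787 ± 118 CPM in vehicle medium and 711 ± 69.5 CPM in aldosterone medium. Its difference of 0.68 was not called in the 24-library fit (adjusted p = 0.0763) and was called in the 21-library fit (0.78, adjusted p = 0.0296) and the paired 24-library fit (adjusted p = 0.00706). Meg3 rose in the direct response (0.53) in the paired 21-library fit and fell there by 0.25 in the medium response (edgeR adjusted p = 0.0214). The libraries carried no strand information, so reads of RNAs that overlap on the other strand of this domain cannot be told apart.

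The genes with a called fall in myotubes and a called difference serve varied functions. Ndrg4 (ENSMUSG00000036564, chromosome 8, 96403608 to 96441747), a cytoplasmic member of the N-myc downstream regulated family, had 119, 107 and 110 CPM in C57 vehicle myotubes and 74.1, 48.6 and 65.6 CPM with aldosterone. The mdx myotubes had 138, 135 and 149 CPM with vehicle and 100, 89.5 and 81.1 CPM with aldosterone. Within each genotype the groups did not overlap. All 12 fibroblast libraries were between 44.1 and 52.5 CPM in either medium. Ndrg4 fell by 0.74 on the log2 scale in the direct response (adjusted p = 2.53e-05), its medium change was -0.04, and the difference was -0.69 (SE 0.102, adjusted p = 0.0119).

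Wfs1 (ENSMUSG00000039474, chromosome 5, 37123448 to 37146549) encodes wolframin, a membrane protein of the endoplasmic reticulum. It had 571, 449 and 442 CPM in C57 vehicle myotubes and 369, 291 and 301 CPM with aldosterone. The mdx myotubes had 424, 473 and 561 CPM with vehicle and 297, 303 and 379 CPM with aldosterone. The fibroblast libraries lay between 46.7 and 58.1 CPM. The difference was -0.65 (SE 0.118, edgeR adjusted p = 0.0327) and was not called in the 21-library fit (adjusted p = 0.0876), although it was called in both paired fits.

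**Figure D2:**
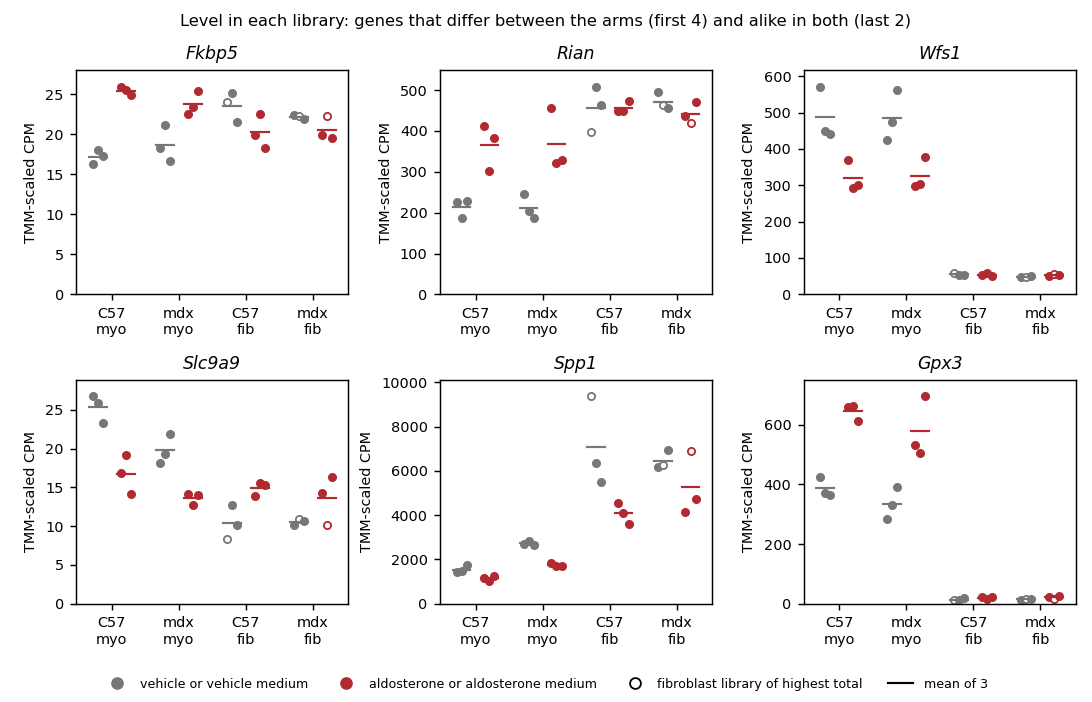
Each point is the TMM-scaled CPM of 1 library for Fkbp5, Rian, Wfs1, Slc9a9, Spp1 and Gpx3, by genotype and cell type (myo, myotubes; fib, fibroblasts), grey for vehicle and red for aldosterone, with a line at the mean of 3 and open points for the 3 fibroblast libraries of highest total. Fkbp5, Rian and Wfs1 separate by treatment in myotubes and overlap in fibroblasts, Slc9a9 is lower with aldosterone in myotubes and mostly higher in aldosterone-medium fibroblasts, and Spp1 is lower in both cell types apart from 1 open point.

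Ckb, the brain-type creatine kinase, had 69.9 ± 7.37 CPM in vehicle and 49.1 ± 4.06 CPM in aldosterone myotubes, and 44.9 ± 3.4 and 46.8 ± 2.24 CPM in the 2 fibroblast groups (SD, n = 6). Its difference was -0.57 (adjusted p = 0.0139). St3gal5, the enzyme that makes the ganglioside GM3, fell from 70.3 ± 5.25 to 51.2 ± 3.11 CPM in myotubes and had 38 ± 1.86 and 38.2 ± 2.49 CPM in fibroblasts, a difference of -0.46 (adjusted p = 0.0237). Reep5, a protein that shapes tubules of the endoplasmic reticulum, had the smallest called difference, -0.33 (adjusted p = 0.0376), from 225 ± 9.34 to 185 ± 10.9 CPM in myotubes and from 154 ± 10.9 to 160 ± 12.6 CPM in fibroblasts. Ccnd3, the cyclin D3 of muscle differentiation and cell cycle entry, fell from 302 ± 25 to 240 ± 15.5 CPM in myotubes. In fibroblasts Ccnd3 had 87.8 ± 4.55 and 97.1 ± 4.8 CPM, and the difference was -0.48 (adjusted p = 0.0197). The Ccnd3 rise of 0.18 in fibroblasts was called in the paired 21-library fit (edgeR adjusted p = 0.0377).

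The call for the difference rested on single libraries for several of these genes in the 24-library fit. It was lost for Reep5 in 21, Ccser1 in 19, Mirg in 16 and Wfs1 in 14 of the 24 fits without 1 library (adjusted p up to 0.115, 0.108, 0.108 and 0.0879), for St3gal5 in 8, for Ccnd3 in 3, and for Apol6 and H1f10 in 1 each. For Ccnd3 these were C57 aldosterone medium replicate 3, C57 vehicle medium replicate 2 and mdx vehicle medium replicate 1. For Apol6 it was C57 aldosterone medium replicate 3, and for H1f10 mdx vehicle medium replicate 1. The log2 differences of these 8 genes kept their sign in these fits. No fit without 1 library lost the difference of Fkbp5, Rian, Ndrg4, Ckb or Slc9a9 (adjusted p at most 0.0358, 0.0424, 0.0358, 0.0405 and 0.0358).

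4 of the 13 genes had medium changes of more than 0.2 on the log2 scale in the opposite direction to a fall in myotubes. Slc9a9 (ENSMUSG00000031129, chromosome 9, 94551962 to 95112498) encodes a sodium/proton exchanger of endosomes. It had 26.8, 25.9 and 23.3 CPM in C57 vehicle myotubes and 16.9, 19.2 and 14.1 CPM with aldosterone. The mdx myotubes had 18.2, 19.4 and 21.9 CPM with vehicle and 14.1, 12.8 and 14.1 CPM with aldosterone. C57 fibroblasts had 8.31, 12.8 and 10.2 CPM in vehicle medium and 13.9, 15.6 and 15.3 CPM in aldosterone medium. The mdx fibroblasts had 10.2, 10.9 and 10.6 CPM in vehicle medium and 14.3, 10.2 and 16.4 CPM in aldosterone medium. Of the aldosterone-medium libraries, mdx replicate 2, one of the 3 that stood apart, was the only one inside the vehicle range. Slc9a9 fell by 0.57 in the direct response (adjusted p = 0.0184), its medium change was 0.44 (adjusted p = 0.298; 0.47 and adjusted p = 0.00176 in the paired 21-library fit), and the difference was -1.01 (SE 0.155, adjusted p = 0.0119). Its direct call was lost in 5 of 24 fits without 1 library (adjusted p up to 0.0634), each time a myotube library.

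H1f10, a linker histone, had 5.35 ± 0.351 and 3.62 ± 0.515 CPM in vehicle and aldosterone myotubes and 8.75 ± 1.39 and 10.4 ± 1.3 CPM in the fibroblast groups, a difference of -0.83 (adjusted p = 0.0197). Apol6, a member of the apolipoprotein L family, went from 3.88 ± 0.819 to 1.85 ± 0.343 CPM in myotubes and from 2.43 ± 0.478 to 3.24 ± 0.615 CPM in fibroblasts, the largest difference among the 12 genes read in both cell types (-1.45, adjusted p = 0.0197). Ccser1 was under 1 CPM in myotubes (0.689 ± 0.192 and 0.305 ± 0.154 CPM) and had 3.65 ± 0.615 and 4.76 ± 0.602 CPM in fibroblasts. The medium changes of H1f10, Apol6 and Ccser1 were not called in any of the 4 fits.

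Several genes with a called direct response lacked a called difference in the 24-library fit. The clock repressors Nr1d1 and Nr1d2 rose in myotubes. Nr1d1 (REV-ERBα) had 35, 33.3 and 34.3 CPM in C57 vehicle myotubes and 57.2, 59.1 and 64.6 CPM with aldosterone, and 30.5, 44.7 and 35.8 against 47.8, 78.2 and 64.7 CPM in mdx myotubes. In fibroblasts it had 47.7 ± 3.37 and 53.8 ± 5.71 CPM (SD, n = 6). The direct change was 0.80 (adjusted p = 0.000467) and the medium change 0.17. The Nr1d1 difference of 0.63 (95% interval 0.33 to 0.93) had an adjusted p of 0.124, and of 0.00161 in the paired 24-library fit. Nr1d1 overlaps Thra on the other strand, and reads of the 2 genes in the overlap cannot be told apart. Nr1d2 had a difference of 0.37 (adjusted p = 0.237, and 0.00706 in the paired 24-library fit). Of the 18 clock genes read in both cell types, 4 rose and 1 fell in the direct response, against 0.206% and 0.246% of all 12612 such genes, and 0 were called in the medium response by edgeR.

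Hspb1, the small heat shock protein HSP27, rose in myotubes (252 ± 37.1 to 327 ± 63.5 CPM, log2 change 0.37, adjusted p = 0.0238), and fibroblasts had 36.9 ± 3.29 and 36 ± 2.77 CPM. Slc22a17, the cell surface receptor of lipocalin-2, fell in myotubes from 152 ± 16.5 to 103 ± 11.1 CPM (log2 change -0.55, adjusted p = 0.000589), with 41.4 ± 3.52 and 38.6 ± 3.25 CPM in fibroblasts. The differences of Hspb1 (0.40) and Slc22a17 (-0.46) had edgeR adjusted p values of 0.25 and 0.124 in the 24-library fit and were called in the paired one (adjusted p = 0.0137 and 0.00767). Itgb1, the integrin beta 1 chain, had a direct change of 0.26 (adjusted p = 0.0404) and a medium change of -0.03, and its difference was called in the paired 24-library fit as well (adjusted p = 0.0292). The direct call of Hspb1 was lost in 9 and that of Itgb1 in 17 of the 24 fits without 1 library (adjusted p up to 0.0852 and 0.124).

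Some genes moved alike in both cell types. Spp1 (ENSMUSG00000029304, chromosome 5, 104582984 to 104588916), which encodes the secreted matrix protein and cytokine osteopontin, was lower after aldosterone in myotubes and lower after aldosterone medium in fibroblasts. In C57 myotubes it had 1434, 1461 and 1726 CPM with vehicle and 1162, 1028 and 1238 CPM with aldosterone. The mdx myotubes had 2682, 2820 and 2663 CPM with vehicle and 1830, 1717 and 1715 CPM with aldosterone. Spp1 libraries separated by treatment within each myotube genotype. C57 fibroblasts had 9372, 6370 and 5512 CPM in vehicle medium and 4564, 4108 and 3614 CPM in aldosterone medium. The mdx fibroblasts had 6170, 6249 and 6926 CPM in vehicle medium and 4163, 6893 and 4744 CPM in aldosterone medium. The mdx aldosterone medium replicate 2 was again the library inside the vehicle range. The log2 changes were -0.53 (adjusted p = 0.0502) and -0.54 (adjusted p = 0.273) in the 24-library fit, neither called. In the 21-library fit both were called, the medium change at -0.55 (adjusted p = 0.0157). The difference between the responses was 0.01 (SE 0.169, 95% interval -0.34 to 0.36).

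Gpx3 (ENSMUSG00000018339, chromosome 11, 54793279 to 54801203), the secreted glutathione peroxidase, was higher after aldosterone at very different levels. In C57 myotubes it had 425, 370 and 365 CPM with vehicle and 661, 662 and 613 CPM with aldosterone, and in mdx myotubes 284, 333 and 392 CPM against 532, 506 and 696 CPM. C57 fibroblasts had 11.9, 11.8 and 17.9 CPM in vehicle medium and 21.1, 17.2 and 23.6 CPM in aldosterone medium, and in mdx fibroblasts 12.3, 15.5 and 15.2 CPM against 23.6, 15.3 and 26.3 CPM. Myotube libraries separated by treatment and fibroblast libraries overlapped. Gpx3 rose by 0.76 in the direct response (adjusted p = 0.00746). Its medium change of 0.58 was not called (adjusted p = 0.298) except in the paired 21-library fit (0.66, adjusted p = 0.013). The difference was 0.18 (95% interval -0.22 to 0.57).

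Per1 and H19 had near-equal changes in the 2 responses without a call in either. Per1, a clock gene and corticosteroid target, went from 26.3 ± 1.87 to 36.8 ± 6.15 CPM in myotubes and from 40 ± 7.93 to 53.5 ± 10 CPM in fibroblasts (log2 changes 0.48 and 0.42, difference 0.06 with a 95% interval of -0.34 to 0.46). H19, an imprinted long non-coding RNA, went from 24570 ± 4677 to 33990 ± 4614 CPM and from 403 ± 100 to 559 ± 107 CPM (0.48 and 0.47). Tsc22d3 (GILZ) had 0.22 and 0.21, and the kinase gene Sgk1 0.20 and 0.20. The wide intervals do not show that these genes respond alike. Both changes of Tsc22d3 were called in the paired 21-library fit (edgeR adjusted p = 0.0369 and 0.0305). Over the 29 corticosteroid targets read in both cell types, 19 were above 0 in the direct and 14 in the medium response, with medians of 0.131 and -8.09e-05. Of these 29, Fkbp5 and Gpx3 were the 2 that rose in the direct response in the 24-library fit, against 0.206% of all 12612 genes read in both cell types. The list members Lcn2 and Hsd11b1 also had called direct responses but did not reach 1 CPM in both cell types. Their calls were lost in 2 and 16 of the 24 fits without 1 library.

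The 93 genes called in the same direction in the paired 21-library fit included Tmpo, Enpp1, Map2 and members of the integrated stress response. Tmpo, which encodes the lamina-associated polypeptides of the nuclear envelope, had 84.5 ± 7.91 and 102 ± 7.96 CPM in the myotube groups and 100 ± 5.37 and 121 ± 14.4 CPM in the fibroblast groups. It was called in both responses in the 21-library fit without pairing as well. Enpp1, which makes the calcification inhibitor pyrophosphate, had log2 changes of -0.57 and -0.55 in the 24-library fit. Map2, a microtubule-associated protein, rose in both in the paired 21-library fit with a larger direct change, and its difference of 1.11 was called (adjusted p = 4.91e-07).

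The integrated stress response raises amino acid synthesis and transport genes, transfer RNA synthetases and stress regulators through the transcription factor ATF4. Of the 35 list members read in both cell types, 33 had direct changes above 0 and 29 had medium changes above 0, with medians of 0.184 and 0.161 against 0.012 and 0.0122 for all 12612 such genes. The sign was the same in both responses for 29 of the 35 (82.9%), against 54.5% of all such genes. No member was called in either response by edgeR in the 24-library fit. In the paired 21-library fit 14 of the 35 rose in the direct response, 11 rose and 1 fell in the medium response, and 7 rose in both. Of all 12570 genes read in both cell types, that fit called 3.15% higher and 2.98% lower in the direct response, 3.49% higher and 2.32% lower in the medium response, and 0.74% in the same direction in both. Asns (ENSMUSG00000029752), asparagine synthetase, had 174, 168 and 164 CPM in C57 vehicle myotubes and 232, 233 and 196 CPM with aldosterone, and 243, 155 and 158 against 255, 160 and 193 CPM in mdx. C57 fibroblasts had 77.5, 95.2 and 85.4 CPM in vehicle medium and 109, 124 and 110 CPM in aldosterone medium, and in mdx fibroblasts 83.7, 76.2 and 76.7 against 102, 67.9 and 102 CPM. C57 libraries separated by treatment in both cell types, and mdx libraries overlapped. Asns log2 changes were 0.26 and 0.30, with a difference of -0.05 (95% interval -0.41 to 0.32).

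Phgdh and Mthfd2, enzymes of serine synthesis and of the mitochondrial folate pathway, had direct changes of 0.30 and 0.30 and medium changes of 0.25 and 0.34. Atf4 itself had 0.28 and 0.17, and the synthetase genes Aars and Gars 0.17 and 0.18 in the direct and 0.19 and 0.17 in the medium response. These 5 genes and Asns were called in both responses in the paired 21-library fit. The stress genes were less uniform. Ddit3 (CHOP) had 0.26 and -0.01, Nupr1 0.09 and -0.14, and Ddit4 0.00 and -0.35, none of them called in the 24-library fit.

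The promoters of 4 list members are shown because they carry the same short element. The CCAAT/enhancer-ATF response element was searched as TGATGNAA on both strands in the 250 bases before the start of each gene in a RefSeq table (GRCm38.p6). The letters occurred in 7 of the 29 stress response genes found in that table (24.1%) and in 954 of all 27025 genes (3.53%). The 7 genes were Aars, Asns, Chac1, Gars, Nupr1, Pck2 and Slc7a11. Their changes were not alike: Nupr1 had 0.09 in the direct and -0.14 in the medium response, Pck2 0.14 and 0.30, and Slc7a11 0.20 and 0.06. The 4 sequences below run 5′ to 3′ on the strand of the gene and end at the base before its start, with the match on either strand in capitals. They are Asns on chr6:7693210-7693459 (minus strand), Gars on chr6:55037751-55038000 (plus strand), Aars on chr8:111033592-111033841 (plus strand) and Chac1, a glutathione-degrading enzyme, on chr2:119350992-119351241 (plus strand).
Asns: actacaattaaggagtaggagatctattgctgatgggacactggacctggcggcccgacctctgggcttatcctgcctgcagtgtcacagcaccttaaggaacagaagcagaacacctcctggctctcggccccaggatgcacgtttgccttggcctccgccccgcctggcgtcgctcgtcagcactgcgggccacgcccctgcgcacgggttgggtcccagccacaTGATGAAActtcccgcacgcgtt
Gars: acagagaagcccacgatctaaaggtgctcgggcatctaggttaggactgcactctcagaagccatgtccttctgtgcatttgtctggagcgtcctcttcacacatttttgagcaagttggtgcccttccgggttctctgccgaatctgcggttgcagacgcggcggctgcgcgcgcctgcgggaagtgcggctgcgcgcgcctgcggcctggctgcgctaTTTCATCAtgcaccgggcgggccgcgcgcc
Aars: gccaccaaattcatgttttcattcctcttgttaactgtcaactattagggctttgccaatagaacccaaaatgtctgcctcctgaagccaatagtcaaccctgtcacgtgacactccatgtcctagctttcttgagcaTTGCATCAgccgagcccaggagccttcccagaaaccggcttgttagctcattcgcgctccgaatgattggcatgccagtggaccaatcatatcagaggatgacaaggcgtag
Chac1: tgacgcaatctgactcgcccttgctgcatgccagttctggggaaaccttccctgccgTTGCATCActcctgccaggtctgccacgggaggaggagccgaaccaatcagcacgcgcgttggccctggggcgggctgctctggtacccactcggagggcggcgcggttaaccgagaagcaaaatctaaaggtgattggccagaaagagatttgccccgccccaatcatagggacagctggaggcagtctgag

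The match lay 15 bases before the start in Asns, 22 in Gars, 104 in Aars and 185 in Chac1. Asns, Gars and Aars were called in both responses in the paired 21-library fit. Chac1 had changes of 0.47 and 0.29 and was called in neither response in any of the 4 fits. A palindromic glucocorticoid response element, searched on both strands, occurred in 0 of the 29 stress response promoters, in 2 of 24 corticosteroid target promoters (8.33%; Map3k6 and Mt1) and in 103 of all promoters (0.381%). Neither Map3k6 nor Mt1 was called in either response. These matches describe the letters of these windows and not binding.

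More medium genes were called without the 3 libraries. The 21-library fit called 32 genes in fibroblasts, 20 higher and 12 lower, and all 32 had the same sign with all 24 libraries. Their median absolute log2 change was 0.621 in 21 and 0.595 in 24 libraries. The genes were picked in the 21-library fit, and all of its libraries are also in the 24-library fit. Like sign and size in the 2 fits were therefore partly set by that choice. Other choices also gave medium calls. With all 24 libraries DESeq2 called 43 genes and edgeR with a replicate block in all cultures called 459, and leaving out mdx aldosterone medium replicate 2 alone gave 112. With a term for the 3 libraries in place of leaving them out, edgeR called 0 medium genes without pairing (DESeq2 was not run with this term) and 11 with the myotube cultures paired. The mdx aldosterone medium replicate 2 lay on the vehicle side of all 5 other aldosterone-medium libraries in 28 of the 32 genes. C57 vehicle medium replicate 1 lay beyond all 4 other vehicle-medium libraries, away from the aldosterone side, in 29, and mdx vehicle medium replicate 2 did so in 5. The placement of the first library makes the 24-library change smaller and that of the second makes it larger. The 32 genes were picked by the separation of the libraries that remained, so these counts partly reflect that choice. The same shares over all genes were not computed. The choice to leave the 3 libraries out was made on their totals, after the data had been seen, and the cause of their difference was not tested. Their 3 columns come first in the deposited counts, out of the order of the other fibroblast libraries, and the reason is not given. Whether any of the 3 libraries carries a wrong label or was prepared apart from the others was not tested and is not stated in these files. The medium values therefore hold for the libraries as labelled.

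Sfrp2 (ENSMUSG00000027996, chromosome 3, 83673628 to 83681623), a secreted Wnt modulator, was the gene with the largest of the named medium rises. C57 fibroblasts had 10.2, 52.2 and 65.8 CPM in vehicle medium and 122, 120 and 146 CPM in aldosterone medium. The mdx fibroblasts had 55.8, 84.4 and 75.7 CPM in vehicle medium and 267, 54.7 and 262 CPM in aldosterone medium. Only mdx aldosterone medium replicate 2 (54.7 CPM) lay inside the vehicle range. Myotubes had 1.37 to 4.11 CPM under either treatment. The medium change was 1.52 in the 24-library fit (adjusted p = 0.298) and 1.57 in the 21-library fit (SE 0.163, adjusted p = 0.000845). The direct change was -0.18, and the difference was -1.75 in the 21-library fit (adjusted p = 0.0203).

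Mest and Nid2 had medium rises and lower direct values. Mest (ENSMUSG00000051855, chromosome 6, 30723546 to 30748464), an imprinted gene of the hydrolase family, had 77.2, 122 and 119 CPM in C57 vehicle medium and 161, 193 and 190 CPM in C57 aldosterone medium. The mdx fibroblasts had 128, 124 and 131 CPM against 256, 103 and 271 CPM. Nid2 (ENSMUSG00000021806, chromosome 14, 19801333 to 19861855), the basement membrane protein nidogen 2, had 36.7, 70.7 and 72.4 CPM against 93.6, 102 and 109 CPM in C57 and 70.2, 59.9 and 65.2 CPM against 118, 47.7 and 102 CPM in mdx fibroblasts. For both genes mdx aldosterone medium replicate 2 was the lowest of the aldosterone-medium libraries. In the 21-library fit the medium changes were 0.81 for Mest (adjusted p = 0.0227) and 0.60 for Nid2 (adjusted p = 0.0108). Their differences were called at -1.17 (adjusted p = 0.0261) and -0.94 (adjusted p = 0.00392). Both genes also fell in myotubes in the paired 21-library fit (edgeR adjusted p = 0.00275 and 0.00134).

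**Figure D3:**
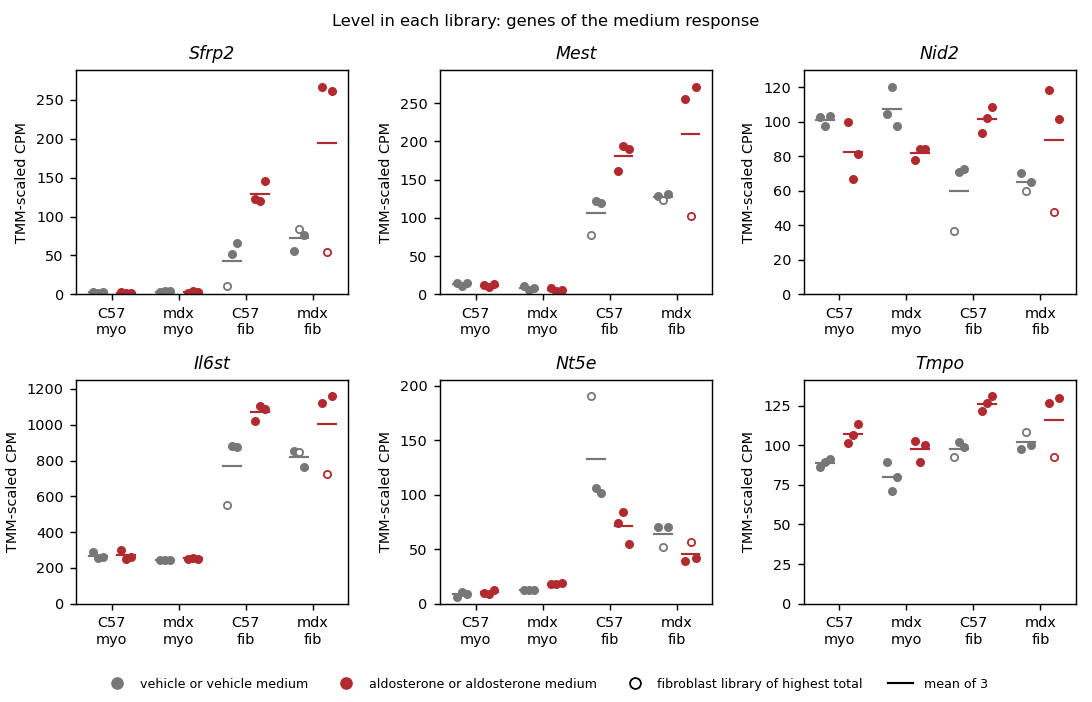
Each point is the TMM-scaled CPM of 1 library for 6 genes of the medium response, by genotype and cell type (myo, myotubes; fib, fibroblasts), grey for vehicle and red for aldosterone, with a line at the mean of 3 and open points for the 3 fibroblast libraries of highest total. The closed red fibroblast points lie above the closed grey ones for Sfrp2, Mest, Nid2, Il6st and Tmpo, and the open red point lies within or below the range of the vehicle points. Nt5e is lower in aldosterone medium within each genotype for the closed points.

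Il6st, the gp130 chain that interleukin 6 family receptors share, had 554, 883 and 875 CPM in C57 vehicle medium and 1020, 1107 and 1091 CPM in C57 aldosterone medium. The mdx fibroblasts had 853, 850 and 763 CPM against 1119, 726 and 1160 CPM. It rose by 0.39 in the 21-library fit (adjusted p = 0.0185) and had a direct change of 0.04, with a difference that was called only with pairing among the 21-library fits (adjusted p = 0.198 and 0.00201). Nt5e, the ecto-nucleotidase CD73 that makes adenosine, fell by 0.68 in the 21-library fit (adjusted p = 0.0255), and its difference of 1.06 was called (adjusted p = 0.0203). Nt5e had 191, 106 and 101 CPM against 73.8, 84.3 and 54.8 CPM in C57 and 70.7, 52.1 and 70.3 against 39.3, 56.4 and 41.9 CPM in mdx fibroblasts. Palmd, a cytosolic protein related to paralemmin, rose in the 21-library fit from 9.49 to 17.8 CPM on average (log2 change 0.93, adjusted p = 0.00756; difference -1.12, adjusted p = 0.0203). In all, 10 genes were called in fibroblasts with a called difference and no direct call in the 21-library fit. Of these, Sfrp2, Mest, Nid2, Palmd, Plpp1, Tmtc1, Pdlim2 and Arhgap20 rose and Nt5e and Pitpnm3 fell.

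**Figure D4:**
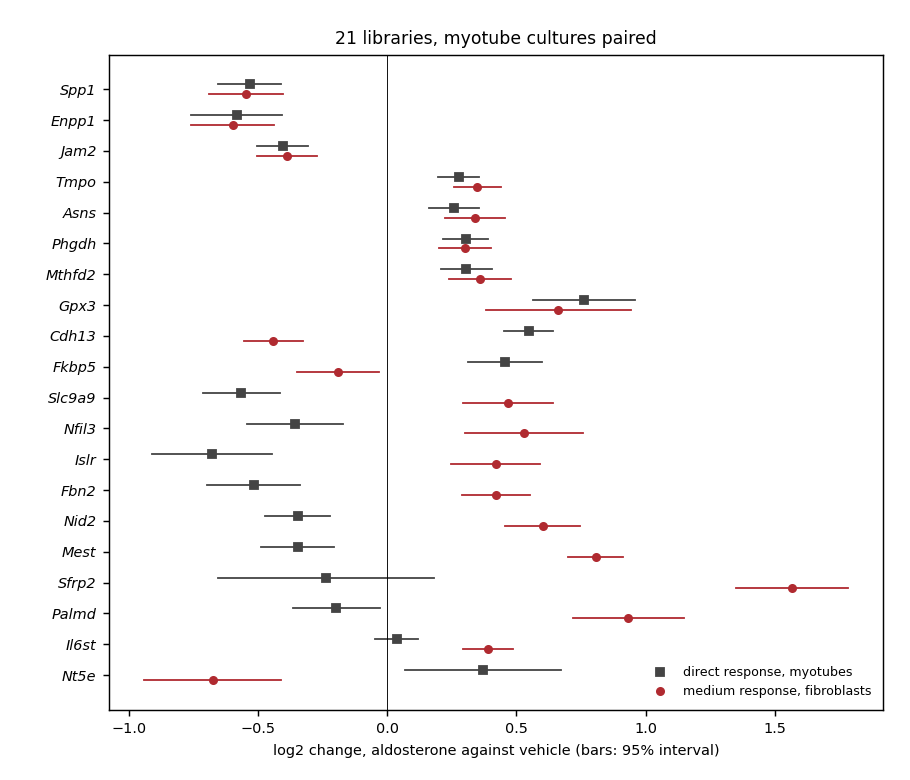
Squares give the direct and circles the medium log2 change of 20 genes in the paired 21-library fit, with bars for 95% intervals. The first 8 genes, from Spp1 to Gpx3, have both changes on the same side of 0, and the genes from Cdh13 to Mest have the 2 changes on opposite sides.

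Cell cycle, cholesterol synthesis and structural matrix genes had medium medians above that of all genes (0.0122), and direct medians that were near 0 or below it. Of 39 cell cycle genes read in both cell types, 38 had a medium change above 0 in the 24-library fit, from -0.03 (E2f1) to 0.34 (Plk1), with a median of 0.21, against a direct median of 0.00176. Without the 3 libraries all 39 were above 0 and the median was 0.311 (0.268 in C57 and 0.361 in mdx). In the paired 21-library fit 21 of the 39 rose in the medium response, among them Ccnb1 and Mki67, against 3.49% of all genes read in both cell types. In the direct response 1 rose and 1 fell there, against 3.15% and 2.98% of all such genes. Ccnb1, the mitotic cyclin B1, had 24.9 and 32.3 CPM on average in the 2 media without the 3 libraries, against 1.70 and 1.72 CPM in the myotube groups. By edgeR 0 members were called in the 24-library fit. In the paired 21-library fit 3 had a called difference, each lower in the direct response, as had 240 of all 12570 such genes.

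Cholesterol and fatty acid synthesis genes had 28 of 30 medium changes above 0 (median 0.15) and 17 of 30 direct changes above 0 (median 0.0226). In the paired 21-library fit 2 of the 30 rose in the medium response, where 3.49% of all such genes did. Dhcr7, the last enzyme of cholesterol synthesis, fell in the direct response (-0.43, adjusted p = 0.0287, up to 0.0957 and lost in 9 of 24 fits without 1 library) and had a medium change of 0.08. Structural matrix genes had medians of -0.0808 in the direct and 0.187 in the medium response, and 17 of the 43 were below 0 in the direct and above 0 in the medium response. In the paired 21-library fit 9 rose and 1 fell with the medium, against 3.49% and 2.32% of all such genes, and 4 rose and 5 fell with the hormone, against 3.15% and 2.98%. The collagen gene Col1a1 had 8778 CPM on average in vehicle medium and 10590 CPM in aldosterone medium, and 804 ± 672 and 858 ± 707 CPM in the myotube groups. Its changes of 0.04 and 0.26 were called in none of the 4 fits. The summed level of 10 fibroblast markers was 13500 to 14900 CPM in the 3 libraries that stood apart. Among the others it was 16900 to 21800 CPM in aldosterone medium and 14000 to 18600 CPM in vehicle medium. Without the 3 libraries tenocyte markers summed to 1050 to 1620 CPM in aldosterone and 787 to 1200 CPM in vehicle medium, and pericyte or smooth muscle markers to 287 to 360 and 353 to 407 CPM. In the 3 libraries these sums were 632 to 841 and 359 to 467 CPM. The part of these markers in the group medians was not tested.

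**Figure D5:**
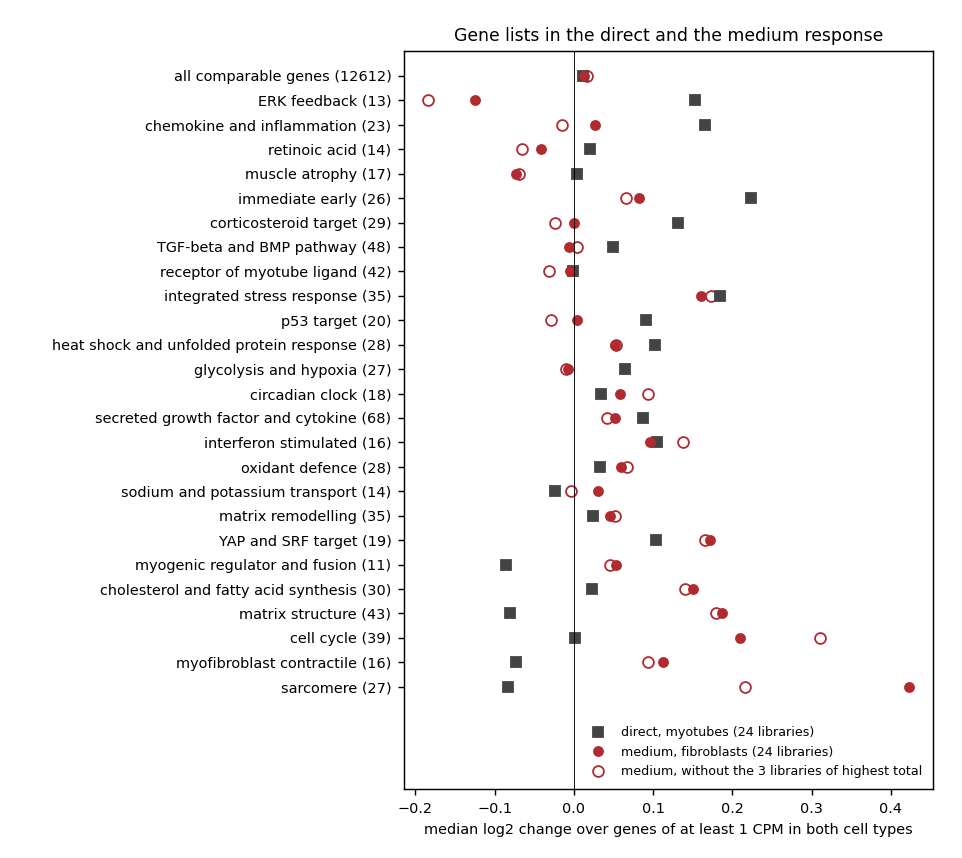
Each row is 1 of 25 gene lists or all genes of at least 1 CPM in both cell types, with the number of genes in brackets. Squares give the median direct log2 change, filled circles the median medium change with 24 libraries and open circles that without the 3 fibroblast libraries of highest total. The integrated stress response has its 3 symbols together near 0.17, the ERK feedback list has its square to the right and its circles to the left of 0, and the cell cycle list has its square at 0 and its circles to the right.

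Sarcomere genes had the widest gap of medians, -0.0831 and 0.423, in genes that fibroblasts express at low levels. With 24 libraries the medium median was -0.36 in C57 and 1.25 in mdx fibroblasts. Without the 3 libraries it was 0.216 over both, 0.699 in C57 and -0.197 in mdx, so its sign turned in both genotypes. No sarcomere gene was called in the 24-library fit. Summed myotube markers were highest in C57 vehicle medium replicate 1 and mdx aldosterone medium replicate 2 (107 and 137 CPM), and their part in these medians was not tested.

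In the paired 21-library fit 40 genes, 0.318% of the 12570 read in both cell types, were called in both responses with opposite signs. Of these, 13 were higher and 27 lower in the direct response. In the 24-library, paired 24-library and 21-library fits 0 genes were opposite by edgeR, where few or no medium genes were called, and with a replicate block in all cultures 16 were. Cdh13, the cadherin without a cytoplasmic tail that binds adiponectin, had 221, 207 and 206 CPM in C57 vehicle myotubes and 343, 352 and 305 CPM with aldosterone, and 161, 200 and 215 against 212, 252 and 320 CPM in mdx. C57 fibroblasts had 103, 79.2 and 85.1 CPM in vehicle medium and 69.5, 61.7 and 61.5 CPM in aldosterone medium, and 108, 119 and 117 against 74.9, 143 and 81.5 CPM in mdx fibroblasts. Apart from mdx aldosterone medium replicate 2 (143 CPM), aldosterone-medium libraries were below the vehicle-medium libraries of their genotype. Cdh13 changed by 0.55 and -0.44 (adjusted p = 5.5e-08 and 2.6e-05), and its difference of 0.99 was also called in the 21-library fit without pairing (adjusted p = 0.00393). With all 24 libraries the difference was 0.89 (adjusted p = 0.0786).

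Nfil3, a clock repressor, had direct and medium changes of -0.36 and 0.53, and the extracellular proteins Islr, Fbn2 (fibrillin 2), Ccn3 and Chrd (the BMP antagonist chordin) of -0.68 and 0.42, -0.52 and 0.42, -0.71 and 0.51, and -0.36 and 0.39. All 5 were called in both responses in the paired 21-library fit, with edgeR adjusted p values from 0.000606 to 0.0251 in the direct and from 0.000294 to 0.0104 in the medium response. Islr and Ccn3 had wide spreads in vehicle myotubes (10.8 ± 5.64 and 9.5 ± 9.88 CPM), with mdx replicate 2 highest in both genes and treatments. The fibroblast marker sum was also highest in mdx replicate 2 in both myotube treatments (3420 and 3570 CPM), and its part in these levels was not tested.

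The ERK feedback list holds phosphatases, Sprouty proteins and transcription factors that MAP kinase signalling induces. The phosphatases and Sprouty proteins dampen that signalling. Of 13 list members read in both cell types, 10 were above 0 in the direct and below 0 in the medium response, with medians of 0.153 and -0.125 in the 24-library fit and -0.184 for the medium without the 3 libraries. By genotype the medium median was -0.246 in C57 and -0.0256 in mdx fibroblasts, and -0.205 and -0.0851 without the 3 libraries. Few passed the test: edgeR called 0 in the 24-library fit, and in the paired 21-library fit 1 rose in the direct and 1 fell in the medium response. Of all genes read in both cell types, that paired fit called 3.15% higher in the direct and 2.32% lower in the medium response. Dusp6 had 0.27 and -0.41, Dusp4 0.16 and -0.48, Dusp5 0.28 and -0.27, and Spry2 0.32 and -0.08, whereas Spry1 had -0.11 and 0.20. Dusp6 had 119 ± 7.2 CPM in vehicle and 144 ± 13.5 CPM in aldosterone myotubes, whose ranges overlapped across genotypes. In fibroblasts its vehicle-medium libraries ranged from 25.5 to 59.7 CPM and its aldosterone-medium libraries from 19.8 to 40.9 CPM. The Dusp6 difference of 0.68 was not called in any of the 4 fits (adjusted p from 0.0953 to 0.209).

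Immediate early genes, the first genes that growth factors induce, had medians of 0.224 in the direct and 0.082 in the medium response. Of 26 members, 24 were above 0 in the direct and 16 in the medium response, and 14 (53.8%) had the same sign in both, against 54.5% of all genes read in both cell types. Fos had changes of 0.94 and -0.67, Egr1 of 0.57 and -0.30, and Ier2 of 0.73 and -0.29. No member was called by edgeR in the 24-library fit in either response. In the paired 21-library fit 2 rose in the direct and 1 in the medium response, against 3.15% and 3.49% of all genes read in both cell types. Egr1 fibroblast libraries ranged from 310 to 1254 CPM in vehicle medium and from 304 to 874 CPM in aldosterone medium.

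No gene was shown to differ between genotypes in the gap between the responses. The test of the C57 difference against the mdx difference called 0 genes (0%) by edgeR in the 24-library fit, with 368 genes at an unadjusted p under 0.05 and a smallest adjusted p of 0.648, and 0 genes in both paired fits. With a replicate block in all cultures edgeR called 1 gene, as did limma-voom with quality weights. For the 13 genes with a called difference the C57 and mdx values had the same sign. These genes were called on the mean of both genotypes, so like signs were largely set by that choice. Fkbp5 had differences of 0.79 in C57 and 0.45 in mdx, Rian 0.77 and 0.89, Ndrg4 -0.71 and -0.68, Wfs1 -0.56 and -0.73, and Slc9a9 -1.12 and -0.89. Within 1 genotype the difference was called for 0 genes in C57 (991 at an unadjusted p under 0.05) and 0 in mdx (715) by edgeR in the 24-library fit, and for 32 (0.179%) and 3 genes (0.0168%) in the paired 24-library fit. Spp1 had differences of 0.36 in C57 and -0.34 in mdx, which did not differ by the test (adjusted p = 1).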

How the data were processed

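Poly(A)-selected RNA of 24 cultures was sequenced from non-directional libraries, per the labels' protocols. The authors deposited 1 table of raw read counts for 56748 genes, and the counts were made with featureCounts 1.5.0-p3 on build mm39, per the submitters' processing notes. A deposited FPKM table was not used. The sources used here name no aligner or annotation release.

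The counts were filtered (filterByExpr over the 8 groups, 17864 genes kept), scaled by TMM and fitted in edgeR 4.0.16 (R 4.3.3) with a robust quasi-likelihood test and all 24 libraries in 1 model, without a replicate term. The direct response, the medium response, their difference and its C57 against mdx contrast were tested and adjusted by Benjamini-Hochberg over all genes. Levels are TMM-scaled CPM, given as the mean ± SD of the 6 libraries of both genotypes unless stated. Standard errors were derived from the fold change and the F statistic. Genes with at least 1 CPM in both cell types (12612, 70.6%) were compared between responses. A gene is shared or opposite if both responses were called, and specific if 1 response and the difference were called.

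Same-numbered libraries were taken as paired where their deviations from group means correlated above 0.1 in every pair, which held in myotubes (best with their own number in 6 of 6) and not in fibroblasts (4 of 6). The labels do not say that a number marks a shared preparation. p-values rest on the spread between these cultures. In the fits of both cell types together, edgeR used 1 estimate of that spread per gene for both. The model was tested on simulated counts. DESeq2 1.42.0 and limma 3.58.1 were alternatives, and the fits without the 3 fibroblast libraries of highest total, with a term for them, or with the myotube cultures paired were chosen after seeing the data.

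Named genes were protein-coding, with at least 5 CPM in both cell types, and chosen by class, size of change, list and adjusted p, plus a fixed set of hormone and matrix genes; where a comparison had under 3 called genes, the 5 of smallest p were added. Rian, Mirg, Meg3, H19, H1f10, Apol6, Ccser1 and the genes of the 21-library fits were named after their values were seen. The genes, the 25 lists and the comparison were chosen with earlier results of these data known.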

Additional observations from a re-analysis of the deposited data

Results flagged for a closer look

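Pcdhga9, a gene of the clustered gamma protocadherins, had direct responses of opposite sign in the genotypes: all 3 C57 aldosterone myotube libraries were below the C57 vehicle libraries and all 3 mdx aldosterone libraries above the mdx vehicle libraries. The mdx direct log2 change exceeded the C57 change by 2.038. The difference was not past the threshold in the test over all genes. Genes of this cluster share exons and are similar in sequence, so the counts of single members are uncertain.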

How the results depend on the processing

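The 4 counts of called genes (direct, medium, difference, C57 against mdx difference) were 74, 0, 13 and 0 in the 24-library fit. With the replicate block in all cultures they were 898, 459, 391 and 1; with the replicate block in myotubes only, 562, 4, 159 and 0. DESeq2 called 176 direct, 43 medium and 71 difference genes. Limma-voom with quality weights and the block gave 1439, 1389, 625 and 1; with 1 weight per cell type 48 direct genes, and with that weight and the myotube block 976, 5 and 157. Separate fits per cell type called 34 direct and 2 medium genes, and 1412 and 3 with the block. Without a filter 1 medium and 21 difference genes were called. The contrast within C57 alone gave 0 and within mdx alone 0 difference genes, both taken from the 24-library fit and not refitted. Without the 3 fibroblast libraries of highest total the medium count was 32 and the difference count 26, and 933, 807 and 419 with the myotube block as well; a term for the 3 libraries gave 85, 0 and 16 without a block, and 740, 11 and 224 with the myotube block.

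Classes over genes read in both cell types (shared, opposite, myotube-specific, fibroblast-specific, called in myotubes only or in fibroblasts only without a called difference, difference alone) were 0, 0, 12, 0, 45, 0 and 0. They were 48, 16, 210, 77, 487, 290 and 72 with the full replicate block; 1, 0, 115, 2, 355, 0 and 36 with the myotube block; 2, 0, 41, 5, 91, 34 and 20 by DESeq2; and 128, 56, 278, 189, 694, 904 and 74 by voom with quality weights and block. One weight per cell type gave 23 myotube genes without a called difference and 1 difference alone; with the myotube block it gave 1 shared, 1 opposite, 119, 2, 632, 1 and 29. No filter gave 3 for difference alone. Without the 3 libraries the counts were 2 shared, 10 fibroblast-specific, 19 in fibroblasts only and 2 difference alone; with the myotube block 93, 40, 163, 146, 475, 452 and 47.

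Fits without a block left out 1 library, and fits with the full block 1 culture, that is both of its same-numbered libraries. With the myotube block 1 myotube culture or 1 fibroblast library was left out. Fits without a block and with the full block gave 37 to 1070 direct, 0 to 1730 medium, 6 to 837 difference and 0 to 4 genotype genes. The classes ranged over 0 to 163 shared, 0 to 69 opposite, 6 to 222 myotube-specific, 0 to 410 fibroblast-specific, 21 to 619 in myotubes only, 0 to 926 in fibroblasts only and 0 to 99 difference alone. The counts of 1070, 1730 and 837 came without mdx fibroblast culture 2, whose libraries are both among the 3 of highest total. With the myotube block the ranges were 225 to 750, 2 to 1225, 72 to 431 and 0 to 1, and for the classes 0 to 99 shared, 0 to 29 opposite, 51 to 145 myotube-specific, 2 to 191 fibroblast-specific, 124 to 416 in myotubes only, 0 to 796 in fibroblasts only and 11 to 48 difference alone. No called change or difference of a named gene reversed under an alternative that was run, whereas the sarcomere medians of the medium response turned in sign in each genotype without the 3 libraries. Of 44 calls of named genes, 38 held without the 3 libraries, 29 with 1 weight per cell type and 1374 of 1584 over the fits without 1 library or culture. With the cell types fitted separately 16 of the 31 direct calls held, and all 31 with the replicate block as well. Of the 13 called differences, 0 were called in the contrast within C57 and 0 in that within mdx. The cause of these shifts was not tested. Myotube spread (biological coefficient of variation) was 0.181 without and 0.067 with the block; in fibroblasts it was 0.113 and 0.0875.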
